A study of Mus musculus with 16 samples.

Results

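Cirbp, Rbm3, Pik3ip1 and Txnip were followed through γδ T cells sorted from the liver and the liver-draining lymph nodes (LN) of mice with cholangitis. They are 4 of the 32285 genes measured. They were chosen by their counts, which were lower after recovery (STOP) than at day 19 of diet (D19) in γδT17-like cells, the subset known for making IL-17, and so the D19 and STOP values of that subset are given as a description only. The other γδ T cells and lineages were also known from earlier results of these data, and their values are not independent support for the choice. The question was whether the lower level in STOP was limited to γδT17-like cells or was shared by other γδ T cells and by cells of other lineages carried through the same sort.

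Cholangitis was induced with chow holding 0.1% DDC, a porphyrinogenic compound that causes cholestasis and bile duct injury. The mice were C57BL/6J males. D0 stands for control chow, D5, D9 and D19 for diet until that day, and STOP for 18 days of diet followed by 7 days of recovery. In D5-DT, Mgl2-DTR animals ate the diet for 5 days and diphtheria toxin, injected on days -1 and 2, depleted Mgl2-expressing cells. Alive CD45+ CD3e+ TCRβ- TCRγδ+ cells had been sorted, marked with a hashtag antibody for each arm and pooled, and 3 more LN libraries of many lineages, sorted by other markers, covered D0, D5 and D19 but not STOP. The many-lineage library titled D5 carries day 6 in its description, and the LN pool titled D19 and STOP carries days 18 and 19, so that the LN D19 arm may hold either day.

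The 5 pools held 11 arms, 6 of liver and 5 of LN. D19 and STOP shared a pool within each tissue, so their ratio was taken within a library, whereas for D19 or STOP against any other arm the pool and the arm cannot be told apart. Each arm was measured once and the number of mice in it was not given, so no test between arms was possible and no p-value is printed. Levels are UMIs (captured RNA molecules) summed over the cells of a class and divided by the UMIs of all genes there, on the counts-per-million scale (CPM). Intervals are exact 95% intervals and cover counting error only, not the spread between mice. In such sums, fewer positive cells and less RNA per positive cell cannot be told apart.

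Filtering left 30347 cells in 24 clusters, and pools held 13074668 to 71447265 UMIs. γδT17-like cells numbered 4946 in liver D19, 1236 in liver STOP, 118 in LN D19 and 106 in LN STOP. They carried Cd163l1, which encodes Scart1, at 551 CPM and Trdc at 2129 CPM over all arms, against 21.8 and 1326 CPM in other γδT-like cells, which took in the γδT1-like, NK-like, naive, type 2 help, cycling and unnamed γδ clusters. Their median depth was 2629.5 UMIs in liver D19 and 3273.5 in liver STOP, and 3383.5 and 4193 in the LN arms. Against the sort, 355 of 780 cells of LN D19 and 326 of 772 of LN STOP fell in non-γδ classes, while liver D19 and STOP held 11 and 6 such cells, too few for a ratio. Any pair of libraries shared 0 to 25 cell barcodes, at most 0.393% of the smaller.

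Cirbp and Rbm3 encode small RNA-binding proteins with an RNA recognition motif and a glycine-rich tail. Mild cold raises both and heat lowers both, and they are not related to the Y-box proteins that carry a cold-shock domain. Pik3ip1 encodes a transmembrane protein that inhibits PI3K and restrains T cell activation. Txnip encodes an α-arrestin that binds thioredoxin and limits glucose uptake, and its transcription follows glucose through MondoA and ChREBP. Pik3ip1 and Txnip are known in resting lymphocytes, where FOXO factors sustain them, and go down on activation.

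The sequences before the annotated starts are shown because known inputs to these genes (cold, FOXO factors, glucose) have named motifs. They come from RefSeq, build GRCm38.p6, which gave entries for 3 of the 4 genes, and each holds the 250 bases before a start on the plus strand. Capitals mark matches on either strand to TCCCCGCC (mild cold element), GTAAACA (FOXO), CACGAG (a box of the carbohydrate response element), CACGTG (E-box), CCAAT, the heat shock element or TATAAA. Rbm3 is named only.
Cirbp, start 1, chr10:80167589-80167838: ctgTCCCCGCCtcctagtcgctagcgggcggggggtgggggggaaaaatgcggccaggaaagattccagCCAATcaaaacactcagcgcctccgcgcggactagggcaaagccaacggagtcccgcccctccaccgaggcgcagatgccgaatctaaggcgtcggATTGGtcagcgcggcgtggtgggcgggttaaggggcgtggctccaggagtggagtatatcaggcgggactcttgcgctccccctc
Cirbp, start 2, chr10:80167921-80168170: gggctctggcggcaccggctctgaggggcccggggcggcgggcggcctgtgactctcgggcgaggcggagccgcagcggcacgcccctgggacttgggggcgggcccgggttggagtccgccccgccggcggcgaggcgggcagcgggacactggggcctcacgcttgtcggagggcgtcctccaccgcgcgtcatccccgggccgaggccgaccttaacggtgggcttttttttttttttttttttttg
Pik3ip1, chr11:3330481-3330730: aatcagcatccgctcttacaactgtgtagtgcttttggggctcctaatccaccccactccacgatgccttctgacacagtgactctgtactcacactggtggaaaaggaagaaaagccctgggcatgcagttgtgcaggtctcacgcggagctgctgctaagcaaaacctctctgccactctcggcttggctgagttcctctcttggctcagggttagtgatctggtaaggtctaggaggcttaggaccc
Txnip, chr3:96557707-96557956: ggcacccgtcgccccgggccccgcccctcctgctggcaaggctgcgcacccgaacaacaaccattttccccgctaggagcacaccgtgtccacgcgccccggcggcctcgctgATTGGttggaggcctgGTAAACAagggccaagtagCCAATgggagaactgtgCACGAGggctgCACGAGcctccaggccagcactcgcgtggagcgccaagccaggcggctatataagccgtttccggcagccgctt

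The first Cirbp sequence held TCCCCGCC at -247 from the start, a match that 4.64% of 32851 promoter sequences share, and CCAAT at -181 and -85 (33.9% of sequences). The second Cirbp sequence and that of Pik3ip1 held none of the motifs. Txnip held GTAAACA at -121 (3.17% of sequences), CACGAG at -85 and -74 (5.37%), and CCAAT at -137 and -102. The 2 CACGAG boxes had 5 bases between them, an arrangement found in 1 of the 32851 sequences and searched for after the sequence had been seen. CACGTG, the heat shock element and TATAAA, which 6.02%, 0.466% and 12.4% of sequences hold, were in none of the 4. A match describes letters and not binding.

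Cirbp was highest at D19 in both tissues. In liver γδT17-like cells its level was 228 CPM at D0, 142 at D5, 232 at D9, 511 at D19, 138 in STOP and 210.2 in D5-DT. In LN γδT17-like cells it was 153 CPM at D0, 205 at D5, 346 at D19, 81.4 in STOP and 196 in D5-DT. The intervals of liver D19 (499 to 523 CPM) and LN D19 (292 to 407 CPM) overlapped with no other arm, and STOP was the lowest arm of each tissue, next to liver D5 and LN D0, whose intervals it overlapped.

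Other γδT-like cells gave the same place to D19 and STOP. Their Cirbp level in the liver was 204 CPM at D0, 162 at D5, 199 at D9, 354 at D19, 98.0 in STOP and 202 in D5-DT. In the LN it was 104 CPM at D0, 167 at D5, 349.6 at D19, 69.6 in STOP and 253 in D5-DT. Within each tissue D19 lay above and STOP below every other arm, with no overlap of intervals.

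Rbm3 was also highest at D19 in the pooled sums but came close to that level earlier. The liver γδT17-like level was 613 CPM at D0, 800.5 at D5, 1069.5 at D9, 1096 at D19, 435 in STOP and 808 in D5-DT. Its LN level in these cells was 370.0 CPM at D0, 851 at D5, 889 at D19, 273 in STOP and 814 in D5-DT. D9 and D19 overlapped in the liver, D5, D19 and D5-DT overlapped in the LN, and D0 and STOP were the lowest arms of both tissues. In other γδT-like cells the liver ran from 465 CPM in STOP and 532 at D0 to 1135 at D19. The LN ran from 324 CPM in STOP and 361 at D0 to 991 at D19, with 799 at D5. Of the 1344 UMIs of Rbm3 in this LN D19 class, 534 came from 11 cycling cells among 301, whose level was 2301 CPM. No level without cycling cells was taken, so a peak at D19 in the remaining LN cells of this class is not settled.

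Pik3ip1 was counted less often, and its order differed between cell groups. The liver γδT17-like level was 24.7 CPM at D0, 32.6 at D5, 44.0 at D9, 69.1 at D19, 15.2 in STOP and 26.2 in D5-DT. γδT17-like cells of the LN held 44.7 CPM at D0, 62.5 at D5, 119 at D19, 44.0 in STOP and 48.9 in D5-DT. D19 (interval 88.4 to 157 CPM) overlapped only with D0, whose interval reached up to 92.0 CPM, and STOP with D0, D5 and D5-DT. In other γδT-like cells of the LN it was 118 CPM at D0 and at D5, 160.1 at D19, 44.7 in STOP and 132 in D5-DT, so that STOP lay below every other LN arm with no overlap. In those of the liver STOP (44.5 CPM, interval 31.8 to 60.6) overlapped with D0 (40.2 CPM), D5 (55.1 CPM) and D5-DT (57.7 CPM), and lay below D9 (84.7 CPM) and D19 (81.1 CPM).

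Txnip followed yet another order. γδT17-like cells of the liver held 205 CPM at D0, 221 at D5, 205 at D9, 326 at D19, 184 in STOP and 142 in D5-DT, and STOP overlapped with D0 and D9. Those of the LN held 408 CPM at D0, 223 at D5, 486 at D19, 161 in STOP and 276 in D5-DT, and D0 overlapped with D19. In other γδT-like cells of the liver it was 310.0 CPM at D0, 469.6 at D5, 454 at D9, 402 at D19, 327 in STOP and 341 in D5-DT. There the peak was at D5 and D9 and STOP overlapped with D0 and D5-DT. Other γδT-like cells of the LN held 243 CPM at D0, 292 at D5, 349 at D19, 159.9 in STOP and 298 in D5-DT, with STOP below all other LN arms.

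**Figure D1:**
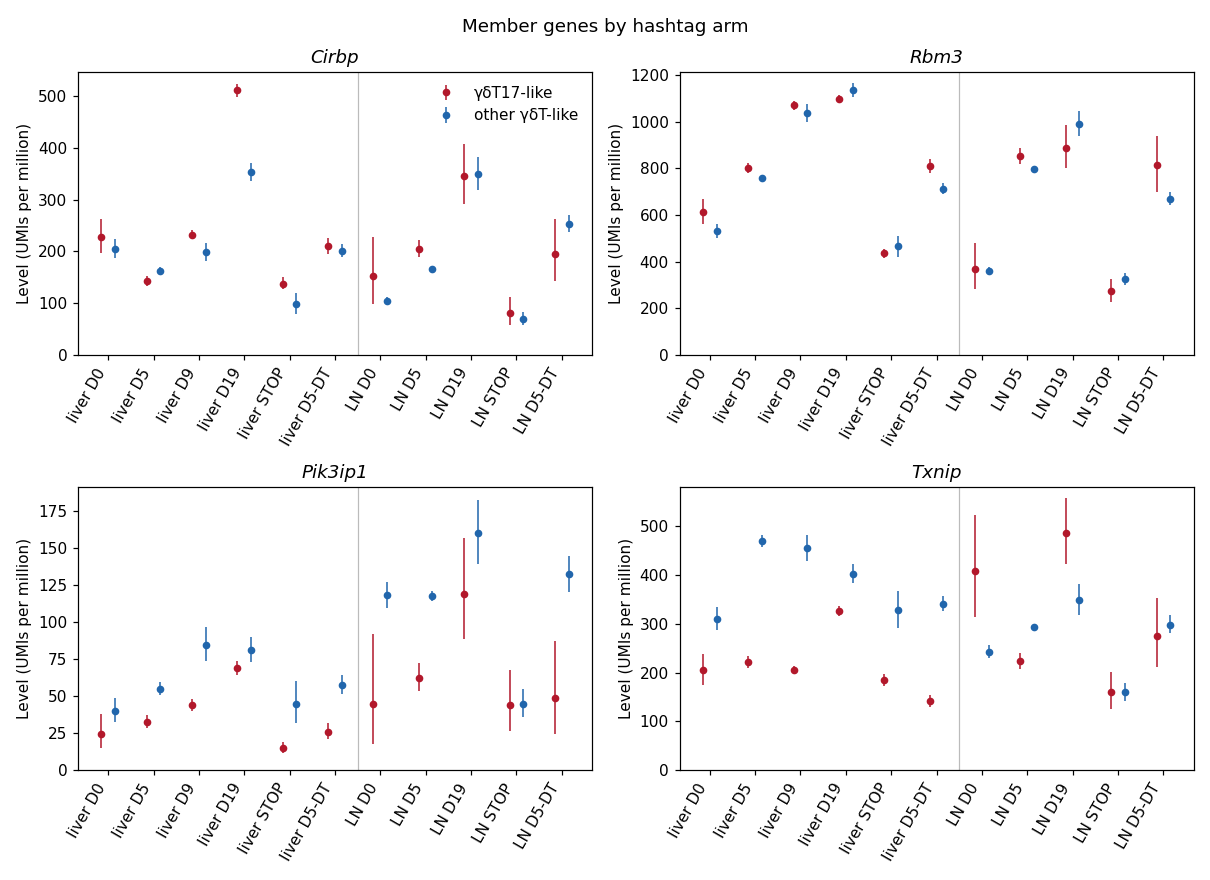
Level of each gene (vertical axis, CPM) in the liver and LN arms (horizontal axis) in γδT17-like cells and in other γδT-like cells, with exact 95% Poisson intervals as bars. Cirbp stood at 511 CPM in liver D19 and 138 CPM in liver STOP in γδT17-like cells, and at 354 and 98.0 CPM in other γδT-like cells.

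Set against D0 of another pool, the STOP level differed by gene. It was lower for Cirbp, with a log2 ratio of -0.72 (interval -0.97 to -0.48) in liver γδT17-like cells and -1.06 (-1.40 to -0.73) in other liver γδT-like cells. In the LN these ratios were -0.91 (-1.69 to -0.11) and -0.59 (-0.87 to -0.31). D19 was higher than D0 for Cirbp, with 1.16 and 0.79 in the liver and 1.17 and 1.74 in the LN. For Rbm3, STOP over D0 was between -0.49 and -0.15, with an interval that held 0 in LN γδT17-like cells (-0.90 to 0.04), and D19 over D0 was between 0.84 and 1.46. For Pik3ip1, STOP over D0 was -0.69 in liver γδT17-like cells, 0.15 in other liver γδT-like cells and -0.02 in LN γδT17-like cells, all with intervals that held 0, and -1.40 (-1.75 to -1.08) in other LN γδT-like cells. The STOP over D0 interval of Txnip held 0 in both liver groups (-0.39 to 0.10 and -0.12 to 0.28), while in the LN the ratios were -1.35 and -0.60.

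Within the pools, the log2 ratio of STOP over D19 in liver γδT17-like cells, which chose the genes, was -1.89 for Cirbp (interval -2.01 to -1.77), -1.33 for Rbm3 (-1.40 to -1.26), -2.18 for Pik3ip1 (-2.57 to -1.82) and -0.82 for Txnip (-0.93 to -0.71). The LN γδT17-like ratios were -2.09, -1.70, -1.44 and -1.60. Of all genes passing a filter of 20 CPM and 20 UMIs over both arms, 1.58% were at least 2-fold lower and 1.55% at least 2-fold higher in liver STOP. The LN shares were 6.25% and 5.15%, and nothing is read from the genes' place among them.

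Other γδT-like cells came from the same mice and pools. There the log2 ratio of Cirbp was -1.85 in the liver (1596 against 88 UMIs, interval -2.18 to -1.54) and -2.33 in the LN (474 against 134 UMIs, -2.62 to -2.05). That of Rbm3 was -1.29 (-1.43 to -1.14) in the liver and -1.61 (-1.75 to -1.47) in the LN. Of all genes, 2.32% were at least 2-fold lower and 3.51% at least 2-fold higher in the liver, and 1.7% lower and 1.87% higher in the LN. Counted from the lowest ratio, Cirbp was number 10 of 5385 genes in the liver and number 3 of 5774 in the LN, and Rbm3 was number 65 and number 22. These places describe the genes and lend the choice no support. Measures of RNA content moved between the arms too, with 31.5% of UMIs from ribosomal protein genes at D19 and 24.3% in STOP in the liver and 26.1% and 24.7% in the LN, and with the nuclear RNA Malat1 at 19600 and 29824 CPM in the liver and 18641 and 22704 in the LN. Their part in the result was not tested.

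For Pik3ip1 and Txnip the ratio of the pooled class passed 2-fold in the LN and not in the liver. Pik3ip1 had a log2 ratio of -0.86 in liver other γδT-like cells (366 against 40 UMIs, interval -1.37 to -0.39) and -1.84 in those of the LN (217 against 86 UMIs, -2.22 to -1.48). Txnip had -0.30 (-0.48 to -0.12) in the liver, number 1092 of 5385 genes, and -1.13 (-1.34 to -0.92) in the LN, number 61 of 5774. With unscaled UMIs per cell the LN ratio of Txnip was -0.76 (-0.98 to -0.55) and so not past 2-fold, and with mitochondrial, ribosomal and heat shock genes left out of the total the liver ratio of Pik3ip1 was -1.02.

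The make-up of this pooled class differed between the arms. In the liver, naive cells were 10 of 1121 at D19 and 29 of 218 in STOP, and they held 9 of the 366 and 18 of the 40 UMIs of Pik3ip1. In the LN, NK-like cells went from 60 of 301 to 9 of 333. Cycling cells of the LN were 11 of 301 at D19 and 19 of 333 in STOP, and they held 534 of the 1344 and 178 of the 625 UMIs of Rbm3. With the naive clusters left out, an alternative chosen after seeing the data, the Pik3ip1 ratio of the liver was -1.53 (interval -2.22 to -0.91) and so past 2-fold, and that of the LN was -1.89 (-2.29 to -1.51). For Cirbp, Rbm3 and Txnip the liver ratios were then -1.90, -1.24 and -0.27. With the NK-like clusters left out, another such alternative, the LN ratio of Pik3ip1 was -1.60 and the liver ratio of Txnip -0.56.

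**Figure D2:**
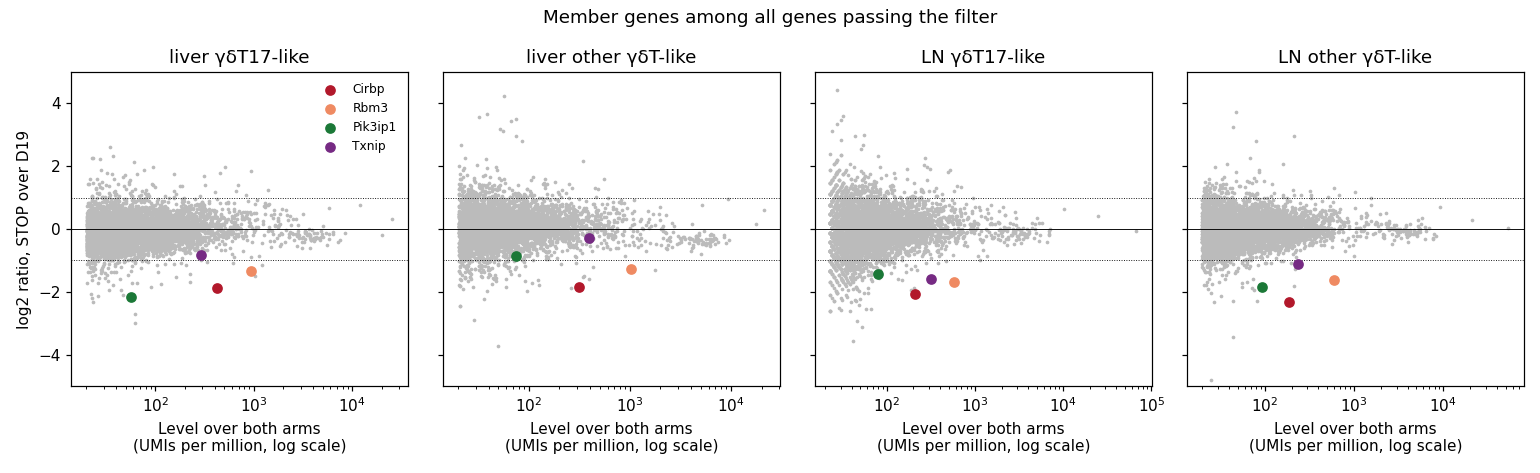
Log2 ratio of STOP over D19 (vertical axis) against the level over both arms (horizontal axis, CPM, log scale) for every gene passing the filter, with the 4 genes coloured and dotted lines at a 2-fold difference. In other γδT-like cells Cirbp lay at -1.85 in the liver and -2.33 in the LN, and Txnip at -0.30 and -1.13.

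The arms were then split into classes with 10 or more cells in D19 and in STOP, and a gene was read where it had 10 or more UMIs. This gave 7 γδ classes in the liver, and 8 γδ classes and 5 other lineages in the LN. As background, the share of all genes at least 2-fold lower in STOP in the liver was 1.99% in Scart1-like and 3.69% in Scart2-like γδT17 cells, 5.7% in NK-like, 10.7% in γδT1-like, 5.59% in naive and 8.44% in type 2 help cells, and 10.5% in unnamed cluster 2. In LN γδ classes it was 6.66% in Scart1-like, 5.27% in Scart2-like, 3.51% in γδT1-like, 7.96% in naive, 5.51% in type 2 help and 5.25% in cycling cells, and 4.3% and 9.52% in unnamed clusters 2 and 9. In the other LN lineages it was 5% in B cells, 6.24% in mature dendritic cells (DC), 9.77% in monocytes or macrophages, 14.1% in neutrophils and 9.25% in stromal cells. Scart1 and Scart2 are scavenger receptors that mark γδT17 cells of different receptor use.

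Cirbp was lower in STOP in all 20 classes and at least 2-fold lower in 19. Without the 4 γδT17 classes the counts were 16 of 16 and 15 of 16. The exception was the naive class of the liver, with 5 UMIs at D19 and 12 in STOP on 10 and 29 cells (log2 ratio -0.59, interval -2.20 to 1.26). In liver NK-like cells Cirbp stood at 332 CPM in D19 and 98.5 in STOP (log2 ratio -1.75, interval -2.32 to -1.24). In liver γδT1-like cells it stood at 367 and 112 CPM (-1.71, -2.43 to -1.07). The 13 LN classes were all more than 2-fold lower, and the median was -2.23 over the 20 classes and -2.31 over the 16.

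Rbm3 was also lower in all 20 classes and at least 2-fold lower in 17, or 13 of 16 without the γδT17 classes, within a range of -1.81 to -0.84. The other 3 were LN classes, B cells at -0.84 (interval -1.30 to -0.36), unnamed γδ cluster 9 at -0.92 and neutrophils at -0.99 (-2.38 to 0.18). In liver NK-like cells Rbm3 stood at 1140.1 CPM in D19 and 387 in STOP, and in liver type 2 help cells at 1223 and 408 CPM. LN cycling cells had the highest class level, 2301 CPM at D19 and 656 in STOP, on 11 and 19 cells.

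Pik3ip1 was read in 19 classes and was at least 2-fold lower in 12, namely 11 of 14 γδ classes and 1 of 5 other lineages. Without the γδT17 classes it was at least 2-fold lower in 8 of 15, and with cells thinned to 1000 UMIs in 6 of 10 classes. In liver γδT1-like cells it went from 168 UMIs at D19 to 2 in STOP (log2 ratio -3.27, interval -6.33 to -1.40), and in LN Scart1-like cells from 19 UMIs to 1. Scart1-like cells of the liver gave -2.18 (-2.66 to -1.73), and Scart2-like cells went from 111 to 27.8 CPM. In liver type 2 help cells and unnamed cluster 2 the ratios were -0.48 and -0.32, on 3 and 5 UMIs in STOP, and both intervals held 0.

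Txnip was lower in 16 of 20 classes and at least 2-fold lower in 8, namely 6 of 15 γδ classes and 2 of 5 other lineages. Without the γδT17 classes it was at least 2-fold lower in 6 of 16. With unscaled UMIs per cell it was at least 2-fold lower in 5 of 20. In the liver only Scart2-like cells (-1.03, interval -1.28 to -0.79) and unnamed cluster 2 (-1.20, -2.10 to -0.42) passed 2-fold. Liver NK-like cells had 365 CPM at D19 and 381 in STOP (0.06, -0.23 to 0.34). In the LN, Scart2-like cells had 596 CPM at D19 and 143 in STOP (-2.06, -2.59 to -1.56) and unnamed γδ cluster 9 had 571 and 128 CPM. No class had an interval above 0 for any of the 4 genes.

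**Figure D3:**
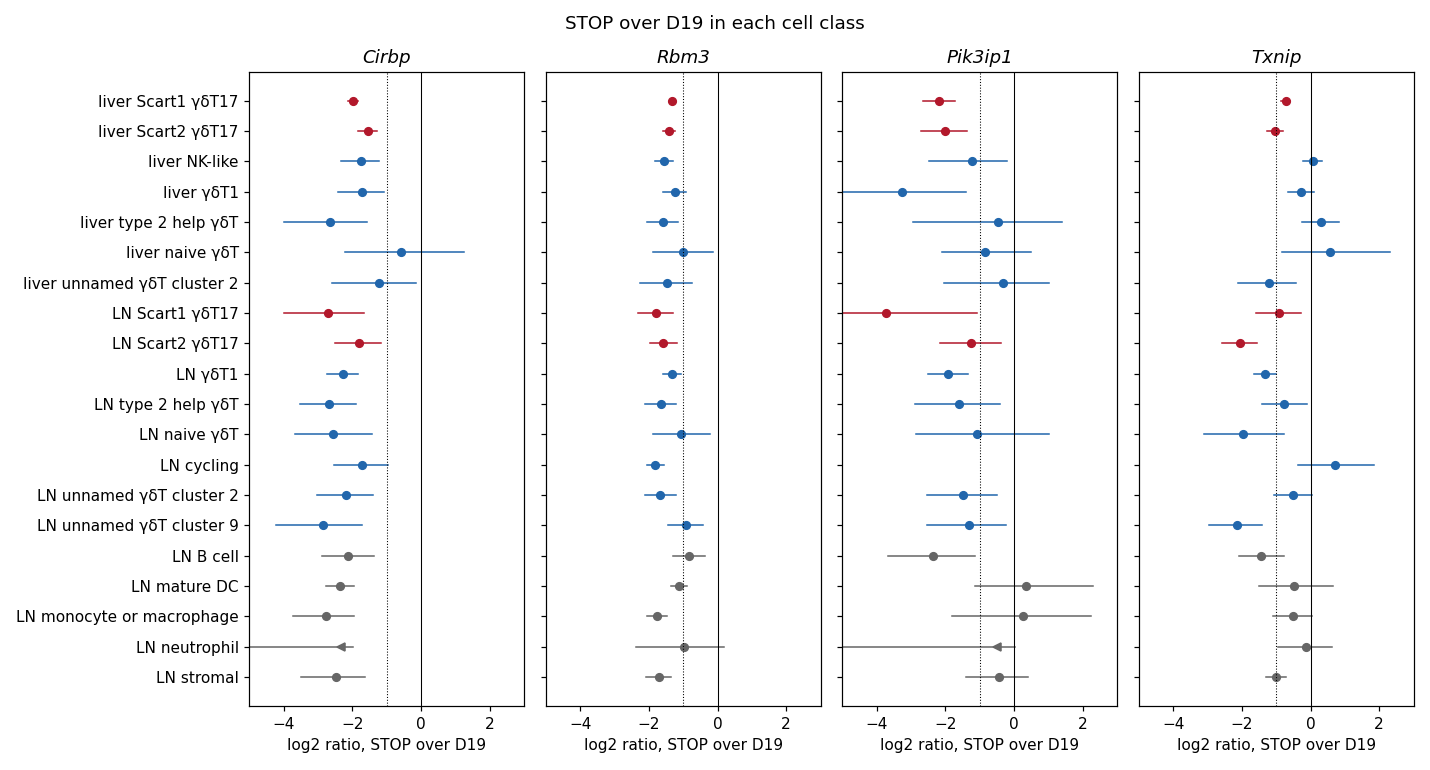
Log2 ratio of STOP over D19 (horizontal axis) for each gene in 20 classes of liver and LN (vertical axis), with exact 95% intervals, γδT17 classes in red, other γδ classes in blue and non-γδ lineages in grey. Triangles mark a class with 0 UMIs in STOP, set at the floor of 3 UMIs, and the dotted line is a 2-fold lower level, which Cirbp passed in 15 of the 16 classes other than γδT17.

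The 5 non-γδ lineages of the LN pool had gone through the same tissue digestion and sort without being γδ T cells. Their Trdc level was 6.56 CPM at D19 and 28.8 in STOP in stromal cells, 13.4 and 120.0 in mature DC, 53.3 and 259 in monocytes or macrophages and 209 and 87.7 in B cells, and neutrophils had 0 and 5 UMIs. It was thus higher in STOP in 4 of the 5 lineages. Malat1 over all non-γδ cells of the LN was 25652 CPM at D19 and 75408 in STOP. The part of γδ RNA or of RNA content in these ratios was not tested. Cirbp went from 397 CPM at D19 to 91.0 in STOP in B cells (38 and 28 UMIs), from 306 to 59.2 CPM in mature DC (91 and 114 UMIs), from 242 to 35.4 CPM in monocytes or macrophages (127 and 13 UMIs) and from 197 to 35.3 CPM in stromal cells (331 and 11 UMIs). Neutrophils had 47 UMIs at D19 and 0 in STOP, and the exact interval put the log2 ratio at -1.98 or lower. All 5 lineages were thus lower by more than 2-fold.

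Rbm3 was at least 2-fold lower in 3 of these 5 lineages, from 1133 to 332 CPM in monocytes or macrophages, from 735 to 224 CPM in stromal cells and from 689 to 317 CPM in mature DC. Pik3ip1 was at least 2-fold lower in B cells, from 167 to 32.5 CPM (16 and 10 UMIs). Neutrophils had 13 UMIs at D19 and 0 in STOP, with an upper limit of 0.02 for the log2 ratio, so that these counts do not settle a 2-fold drop, and at the floor of 3 UMIs they were not counted as 2-fold lower. The other 3 lineages were not 2-fold lower, with stromal cells at -0.44 (-1.40 to 0.40). In mature DC and in monocytes or macrophages it was sparse, with 13.4 and 11.4 CPM at D19 and 17.2 and 13.6 CPM in STOP. Txnip was at least 2-fold lower in B cells (386 to 143 CPM) and in stromal cells (731 to 365 CPM), and its ratios in mature DC, monocytes or macrophages and neutrophils were between -0.52 and -0.12 with intervals that held 0.

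Classes were compared through the difference of their log2 ratios. The γδT17-like side of this difference chose the genes, so that its values are a description and no larger drop in γδT17-like cells is read from them. Between γδT17-like and other γδT-like cells it was -0.04 for Cirbp (interval -0.37 to 0.31) and -0.05 for Rbm3 (-0.21 to 0.12) in the liver, and 0.24 (-0.39 to 0.85) and -0.09 (-0.43 to 0.24) in the LN. The Rbm3 value of the liver was 0.25 with unscaled UMIs per cell. For Pik3ip1 it was -1.32 (-1.94 to -0.68) in the liver, -0.65 (-1.39 to 0.14) with the naive clusters left out, and 0.40 (-0.51 to 1.28) in the LN. For Txnip it was -0.52 (-0.73 to -0.31) in the liver and -0.47 (-0.93 to -0.02) in the LN. The Txnip difference of the liver was -0.26 (-0.52 to 0.01) with the NK-like clusters left out, an alternative chosen after seeing the data, and the LN value was 0.03 (-0.58 to 0.63) without cells that held a UMI of Hspa1a, Hspa1b, Hsph1 or Dnajb1.

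Other γδT-like cells of the LN were set against the non-γδ lineages in the same way. For Cirbp the differences were -0.21 to 0.44 against B cells, mature DC, monocytes or macrophages and stromal cells, and every interval held 0, the widest from -0.76 to 1.21. For Rbm3 other γδT-like cells, with cycling cells included, had the larger drop against B cells (-0.78, -1.28 to -0.28) and mature DC (-0.49, -0.77 to -0.22). For Pik3ip1 they had the larger drop against mature DC (-2.19, -4.18 to -0.63), monocytes or macrophages (-2.10, -4.11 to -0.0029) and stromal cells (-1.40, -2.34 to -0.36). For Txnip they had it against neutrophils (-1.01, -1.80 to -0.16), and the other 4 intervals held 0.

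Between tissues, the drop in the pooled other γδT-like cells was larger in the LN for all 4 genes when naive and cycling cells were included. The make-up of the class differed between tissues and arms as given above. The difference of LN minus liver was -0.48 for Cirbp (interval -0.91 to -0.05), -0.33 for Rbm3 (-0.53 to -0.12), -0.98 for Pik3ip1 (-1.59 to -0.35) and -0.83 for Txnip (-1.11 to -0.55). With the naive clusters left out and cycling cells kept, it was -0.43 (-0.89 to 0.03) for Cirbp and -0.36 (-1.11 to 0.44) for Pik3ip1, both with intervals that held 0. For Rbm3 and Txnip it was then -0.35 and -0.78, with intervals below 0. In γδT17-like cells the intervals lay below 0 for Rbm3 (-0.37) and Txnip (-0.78) and held 0 for Cirbp (-0.20) and Pik3ip1 (0.74). Class by class, Pik3ip1 lay between -1.92 and -1.09 in the LN γδ classes other than γδT17. The value of -1.09, in naive cells, rested on 4 and 11 UMIs and had an interval that held 0 (-2.85 to 1.02). In the liver Pik3ip1 lay at -3.27 in γδT1-like, -1.23 in NK-like, -0.86 in naive and -0.48 in type 2 help cells and -0.32 in unnamed cluster 2. The last 3 had intervals that held 0. Rbm3 lay between -1.81 (cycling) and -0.92 in the LN γδ classes other than γδT17, and between -1.58 and -1.02 in those of the liver. Its pooled LN ratio includes the cycling cells given above, and no difference without them was taken. A larger Rbm3 drop in the LN is therefore not read for the other cells of the pooled class. Tissue and pool cannot be told apart in these values.

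Within liver γδT17-like cells, as a description, Scart1-like cells had a larger Cirbp drop than Scart2-like cells (-0.42, interval -0.72 to -0.10) and a smaller Txnip drop (0.31, 0.03 to 0.59). The mix of γδT17 clusters differed between the arms, with 2588 cells of cluster 3 at D19 and 80 in STOP against 226 and 652 cells of cluster 4. Within single clusters Cirbp was at -1.56 in cluster 1, -1.36 in cluster 3, -1.98 in cluster 4 and -2.55 in cluster 6. Rbm3 lay between -1.50 and -1.39 in the 4 clusters. Txnip lay between -1.03 and -0.35. The part of the mix of clusters in the ratios of the whole class was not tested.

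A further cluster of 770 cells, 692 of them from liver arms and 78 from LN arms, could not be placed. It was led by Hbb-bs, Hba-a1 and Alb, genes of erythroid cells and hepatocytes, yet held Trdc at 2247 CPM, and its median depth was 1380 UMIs. It took 190 of 6272 cells of liver D19 and 100 of 1562 of liver STOP. Its liver log2 ratios were -0.84 for Cirbp (interval -1.61 to -0.12), -0.42 for Rbm3 (-0.96 to 0.10), -2.70 for Pik3ip1 and -0.19 for Txnip, and it entered no count of classes.

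The share of cells with a UMI was read after thinning each cell to 1000 UMIs. In liver γδT17-like cells Cirbp was seen in 39.0% at D19 and 13.1% in STOP, Rbm3 in 65.2% and 35.4%, Pik3ip1 in 6.65% and 1.21%, and Txnip in 25.4% and 16.0%. Without thinning these shares were 71.5% and 35.3%, 92.6% and 72.8%, 16.0% and 4.77%, and 46.8% and 38.4%. In other γδT-like cells of the liver Rbm3 was seen in 65.7% and 29.8%, and Cirbp in 336 of 1121 cells at D19 and 19 of 218 in STOP. The intervals of D19 and STOP overlapped there for Pik3ip1 (80 of 1121 and 12 of 218 cells) and for Txnip (31.9% and 29.8%).

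In the LN the thinned shares of Cirbp were 30.5% at D19 and 7.55% in STOP in γδT17-like cells, 30.2% and 8.71% in other γδT-like cells and 27.0% and 5.21% in the non-γδ cells. Those of Rbm3 were 51.7% and 22.6%, 49.8% and 27.0%, and 50.4% and 26.7% in the same cells. The non-γδ cells were of different lineages in the arms, with 175 stromal cells and 46 mature DC of 355 cells at D19 and 25 and 180 of 326 in STOP. Within lineages Cirbp was seen in 11 of 46 mature DC at D19 and 7 of 180 in STOP, and in 12 of 30 and 8 of 76 B cells. The shares rose with the depth of thinning, as at 2000 UMIs, where Cirbp was seen in 56.5% at D19 and 16.2% in STOP of LN γδT17-like cells, 55.1% and 14.6% of other γδT-like cells and 41.0% and 11.6% of the non-γδ cells. In liver γδT17-like cells it was then 62.4% and 23.0%. No class that lacks these genes was at hand as a background for the shares.

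The LN libraries of many lineages gave the levels before recovery in cells that had not gone through the γδ sort. The class called conventional DC there is uncertain, since 717 of its cells, against 239 in its second cluster, lay in a cluster led by Ifitm1, Ms4a6c and Cfp with 0 of the DC markers among its 10 leading genes. Cirbp was at least 2-fold higher at D19 than at D0 in 9 of 9 lineages, 8 of 8 without that class, with log2 ratios of 1.42 to 3.58, the last from 1 UMI in 10 stromal cells of D0. As background, the share of all genes at least 2-fold higher was 1.43% in B cells, 1.58% in NK-like cells, 1.04% in T cells, 2.11% in conventional DC, 6.02% in erythroid cells, 4.06% in mature DC, 11.5% in monocytes or macrophages, 3.48% in plasmacytoid DC and 20.5% in stromal cells. In T cells Cirbp was 86.1 CPM at D0, 127 at D5 and 299.7 at D19. In B cells it was 142, 205 and 427 CPM, and in plasmacytoid DC 145, 180.2 and 514 CPM. D19 was thus the highest library in these lymphoid and plasmacytoid DC lineages, though library and day cannot be told apart. Heat-induced genes were set beside it in the same cells. Hspa1a, a chaperone gene, was 186 CPM at D0, 13.5 at D5 and 0.114 at D19 in T cells, 637, 25.0 and 0.679 CPM in B cells, 818, 112 and 5.93 CPM in the class called conventional DC and 994, 149 and 5.33 CPM in mature DC. Over the 9 lineages it lay between 186 and 994 CPM at D0 and between 0 and 53.1 CPM at D19. Its part, or that of sample handling, in the Cirbp and Rbm3 levels was not tested.

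Rbm3 was higher at D5 than at D0 in 9 of 9 lineages, with intervals above 0, and at least 2-fold higher in 3 of 9, B cells, T cells and stromal cells. The share of all genes at least 2-fold higher at D5 was 0.686% in B cells, 0.413% in T cells and 18.1% in stromal cells. In the other lineages it was 1.34% in NK-like cells, 2.43% in conventional DC, 2.55% in mature DC, 1.44% in plasmacytoid DC, 12.1% in monocytes or macrophages and 23.9% in erythroid cells. Its T cell level was 357 CPM at D0, 764 at D5 and 1029 at D19. At least 2-fold higher levels at D19 than at D0 were seen in 7 of 9 lineages for Rbm3, 3 of 9 for Pik3ip1 and 2 of 9 for Txnip. T cells held Pik3ip1 at 67.9, 95.1 and 104 CPM and Txnip at 185, 324 and 254 CPM, so that Txnip was highest at D5. Stromal cells held Txnip at 840.5, 709 and 743 CPM with overlapping intervals.

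**Figure D4:**
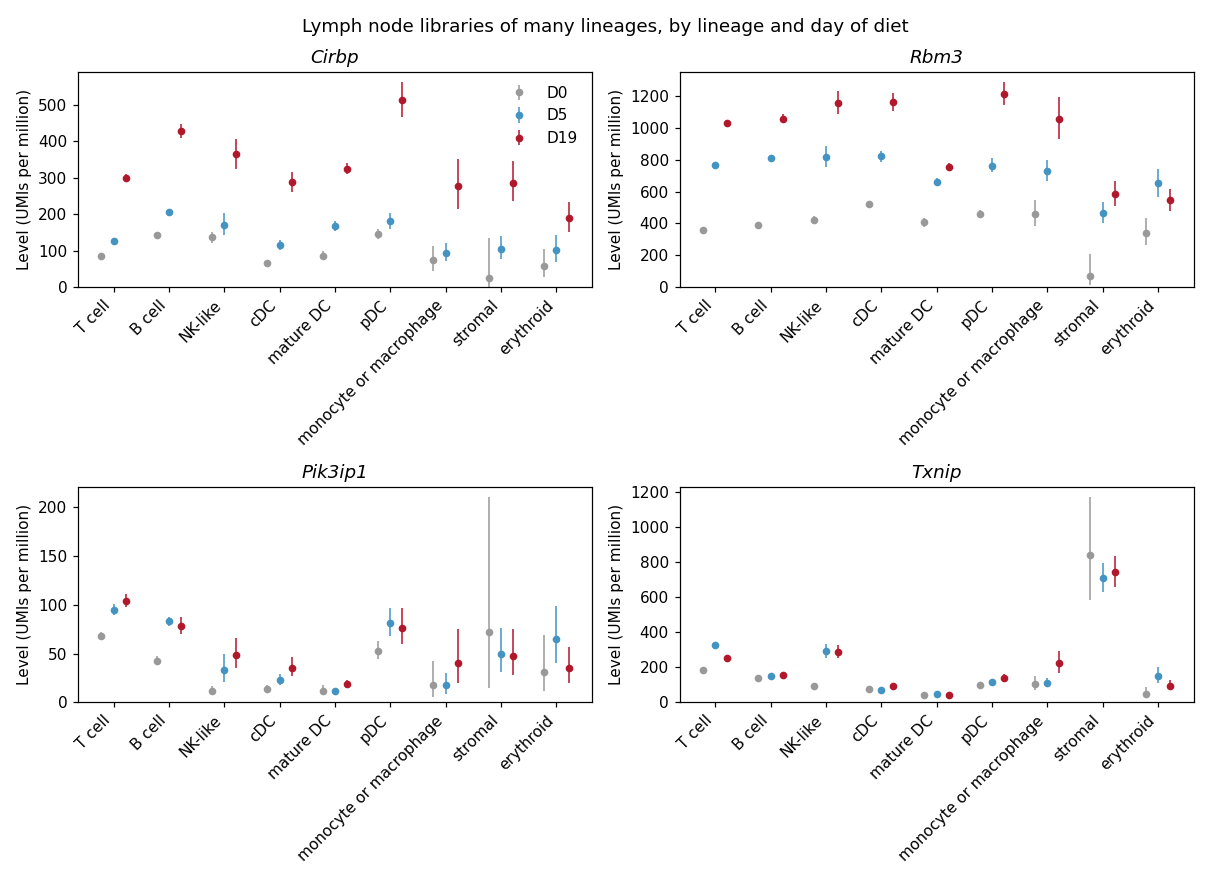
Level of each gene (vertical axis, CPM) in 9 lineages (horizontal axis) of the LN libraries of many lineages at D0, D5 and D19, with exact 95% Poisson intervals. Cirbp was highest at D19 in all 9 lineages, as in T cells with 86.1, 127 and 299.7 CPM.

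Genes related to the members were read from lists. The RNA-binding list held 9 genes, those of RNA-binding proteins and Rtn3, which does not encode one. Of these, Cirbp and Rbm3 were the only genes at least 2-fold lower in any of the 4 comparisons of STOP with D19 (liver and LN, γδT17-like and other γδT-like cells). In liver γδT17-like cells the log2 ratios of 6 of the other members, Rbmx, Rbm4, Rbm5, Rbm39, Rtn3 and Sfpq, lay between -0.04 and 0.57. The Y-box and other cold-shock domain proteins had no gene past 2-fold among 3 read, and SR proteins and CLK kinases had 1 of 14, Srsf10 in LN γδT17-like cells at -1.07. The median over all genes was -0.07 in liver γδT17-like cells and 0.07, -0.02 and -0.03 in the other comparisons.

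The shares of all genes at least 2-fold lower, against which the list counts stand, were 1.58% in liver γδT17-like, 2.32% in other liver γδT-like, 6.25% in LN γδT17-like and 1.7% in other LN γδT-like cells. Genes of T cell quiescence and FOXO were at least 2-fold lower in 2 of 19 in liver γδT17-like cells, Pik3ip1 and the survival gene Bcl2 (-1.68), and in 0 of 21 in other liver γδT-like cells, where the list median was 0.31. The LN γδT17-like cells had 4 of 19, Pik3ip1, Bcl2, Tsc1 (-1.16) and Klf2 (-1.03), and in other LN γδT-like cells Pik3ip1 alone of 21. Pik3ip1 is in these counts through the choice of the genes, and without it they were 1 of 18, 0 of 20, 3 of 18 and 0 of 20 in the order of the shares. Of the PI3K pathway, which also holds Pik3ip1, 2 of 15 genes were at least 2-fold lower in liver γδT17-like cells, 0 of 15 in other liver γδT-like, 2 of 13 in LN γδT17-like and 1 of 15 in other LN γδT-like cells. Pik3ip1 was in each count above 0, and the other gene was the kinase Mtor, at -1.13 and -1.01 in γδT17-like cells of liver and LN. Among α-arrestins and glucose sensing genes none of 8 passed 2-fold in liver γδT17-like cells, with Mlxip, which encodes MondoA, at -0.87 and Arrdc1 at -0.42. In both LN comparisons Txnip was the only gene of this list that passed.

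The glucocorticoid list, which holds Txnip, had 5 of 11 genes at least 2-fold lower in LN γδT17-like cells (6.25% of all genes), 4 of 10 without Txnip, among them Klf9 (-1.89), Tsc22d3 (-1.64), Fkbp5 (-1.36) and Sgk1 (-1.02). It had 1, 0 and 2 such genes in the liver γδT17-like (1.58% of all genes), other liver (2.32%) and other LN (1.7%) comparisons, with list medians of -0.51, -0.46 and -0.58. Txnip (-1.13), a chosen gene, was 1 of the 2 in the other LN comparison. Of the circadian clock, 2 of 11 genes were at least 2-fold lower in γδT17-like cells of the liver and 2 of 11 in those of the LN, and 1 of 7 and 1 of 8 in other γδT-like cells, with the same shares of all genes as background. Tef, a clock output factor, was lower in all 4 comparisons, at -2.33 and -1.79 in γδT17-like cells of liver and LN and -1.17 and -2.04 in other γδT-like cells, and Dbp in both γδT17-like comparisons (-1.94 and -1.01). Rora was higher in other liver γδT-like cells (1.28), and Bhlhe40 (1.21) and Nfil3 (1.05) were higher in LN γδT17-like cells. Of 8 genes of the T cell receptor response, Myc (-1.46) was lower and Egr1 (1.90) higher in LN γδT17-like cells. Hk2 (2.26) and Pfkl (1.34) of 13 glycolysis genes were higher there and none in the other comparisons. Of 10 immediate early genes of dissociation, 1 was higher in other liver γδT-like cells (Jun, 1.31) and 1 in LN γδT17-like cells (Atf3, 1.22), and none in the other comparisons. Of all genes, 3.51% were at least 2-fold higher in other liver γδT-like cells and 5.15% in LN γδT17-like cells.

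Some chaperones were higher in STOP and most heat shock genes did not pass 2-fold. Of the heat shock list 5 of 15 genes were at least 2-fold higher in STOP in liver γδT17-like cells, 4 of 14 in other liver γδT-like cells, 3 of 12 in LN γδT17-like and 5 of 13 in other LN γδT-like cells, and none was at least 2-fold lower. Of all genes, 1.55%, 3.51%, 5.15% and 1.87% were at least 2-fold higher in these comparisons. Hsph1, a heat-induced co-chaperone, had a log2 ratio of 2.60 in liver γδT17-like cells, and Hspa1a (2.95), Hspa1b (2.80) and Chordc1 (1.35) were higher in other liver γδT-like cells. Of the 13 chaperones of the endoplasmic reticulum, 10 were higher in liver γδT17-like cells, with Hsp90b1 and Pdia4 at 1.98 each, and 11 in LN γδT17-like cells, with Sdf2l1 at 2.31 and Manf at 1.90, while other γδT-like cells had 3 of 11 in the liver and 4 of 12 in the LN.

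**Figure D5:**
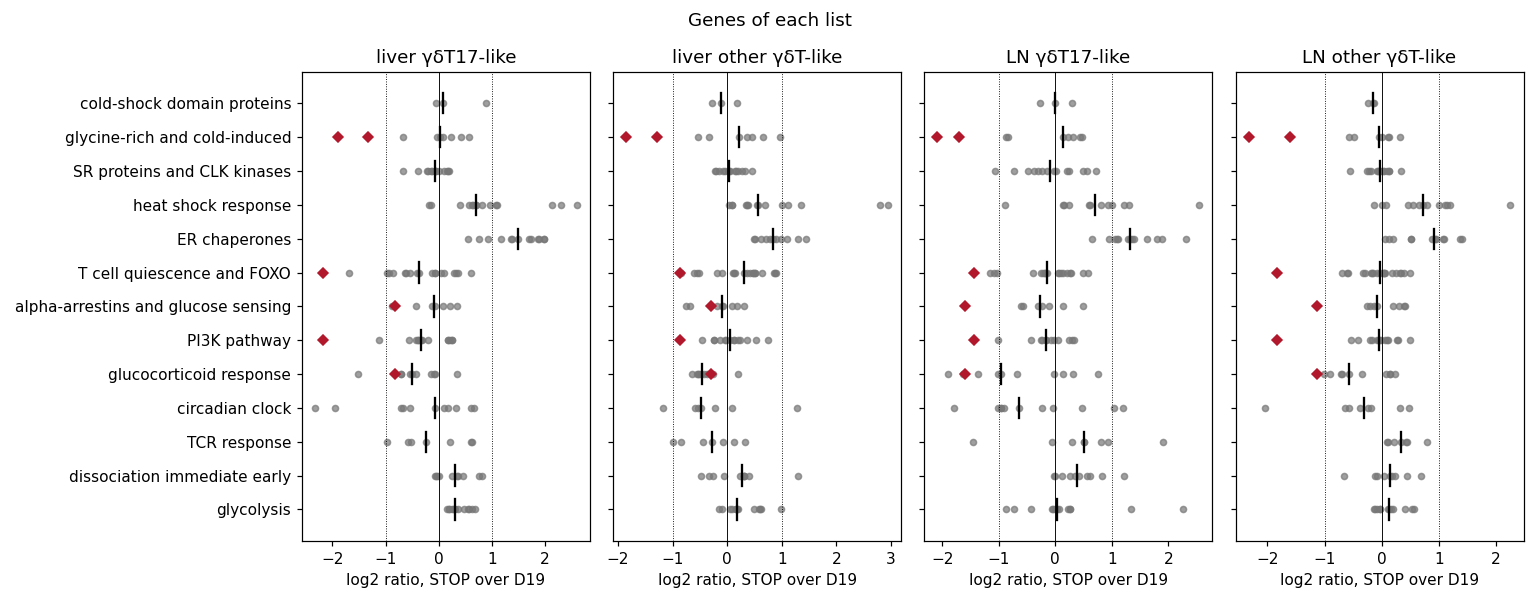
Log2 ratio of STOP over D19 of the genes of 13 lists in 4 comparisons (liver and LN, γδT17-like and other γδT-like cells), with grey dots for genes, red diamonds for the 4 members, a black bar for the list median and dotted lines at a 2-fold difference. Endoplasmic reticulum chaperones had a median of 1.49 in liver γδT17-like cells, against -0.07 over all genes.

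Hsph1 was set beside Cirbp across arms. The liver γδT17-like level of Hsph1 was 27.1 CPM at D0, 54.3 at D5, 35.7 at D9, 15.7 at D19, 95.4 in STOP and 23.0 in D5-DT. Its LN γδT17-like level was 76.6 CPM at D0, 41.1 at D5, 14.3 at D19, 83.6 in STOP and 22.2 in D5-DT. By these values alone, D19 held the lowest Hsph1 and STOP the highest of each tissue in γδT17-like cells. The LN values rest on 12 UMIs at D0, 6 at D19, 38 in STOP and 5 in D5-DT. No intervals were taken for Hsph1, so the order of D0 and STOP and of D19 and D5-DT in the LN is not settled. In other γδT-like cells D19 was again the lowest arm, at 12.8 CPM in the liver and 21.4 in the LN, but the highest was D5 in the liver (57.0 CPM, against 55.7 in STOP) and D0 in the LN (124 CPM, against 102 in STOP). Hspa1a kept yet another order, with 143 CPM at D0, 19.2 at D19, 95.2 in STOP and 2.62 in D5-DT in liver γδT17-like cells. In T cells of the many-lineage libraries Hsph1 was 83.2 CPM at D0, 31.2 at D5 and 6.41 at D19.

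A UMI of Hspa1a, Hspa1b, Hsph1 or Dnajb1 was found in 22.2% of liver γδT17-like cells at D19 and 49.8% in STOP, in 26.9% and 63.7% of other LN γδT-like cells, and in 36.1% and 62.9% of the non-γδ cells of the LN. Without the cells that held any, the Cirbp ratio of liver γδT17-like cells was -1.76. These shares were read without thinning, and STOP cells were deeper in each group. Median UMIs at D19 and in STOP were 2629.5 and 3273.5, 3729 and 5134, and 6845 and 8020 in the order given. The non-γδ cells were also of different lineages in the arms, as given above. The part of heat, cold or handling of the samples in the result was not tested.

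Free RNA, read from barcodes with 10 to 100 UMIs, held Cirbp at 429.9 CPM (interval 394 to 468) and Rbm3 at 1099.8 CPM in the liver D19 and STOP pool, above the levels of the STOP cells in that pool. In the LN pool it held 211 and 621 CPM. Immunoglobulin and hepatocyte genes gave an estimate that free RNA made up 39.2% of the UMIs of γδT17-like cells in the liver pool, resting on 83 UMIs of those genes in free RNA, and 10.4% in the LN pool. At that share free RNA would hold 169 CPM of Cirbp and 432 CPM of Rbm3, against 138 and 435 CPM measured in liver STOP, so that subtracting it left 0 of 580 UMIs of Cirbp and 16 of 1830 of Rbm3 there, and no ratio is read from what was left. In the LN the subtraction took 21.95 CPM of Cirbp and 64.7 CPM of Rbm3. The part of free RNA in the result was not tested.

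Markers of other lineages were also read in the γδT17-like class. In liver γδT17-like cells the 10 monocyte or macrophage markers summed to 727 CPM at D19 and 806 in STOP, with 2 and 4 markers at 0, and the 5 erythroid markers to 0 and 0.476 CPM. In other liver γδT-like cells the monocyte or macrophage markers summed to 68.4 and 148 CPM. They include Ccr2, a receptor that the paper reports in γδT17 cells. Over all arms Lyz2, another of these markers, was 7.12 CPM in γδT17-like cells and 9240 CPM in monocytes or macrophages. In liver γδT17-like cells the 8 B cell markers summed to 43.2 and 85.7 CPM and the 6 hepatocyte markers to 8.72 and 26.4 CPM. The 7 γδ receptor genes summed to 5517 and 8245 CPM, higher in STOP. Plasma cell markers summed to 135 and 152 CPM, plasmacytoid DC markers to 72.7 and 104 CPM and endothelial markers to 70.5 and 91.4 CPM. The 8 αβ T cell markers had the largest sums of another lineage, 1315 and 1487 CPM, against 1415 and 1782 CPM in other liver γδT-like cells. The part of cells of other lineages in the result was not tested.

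Over 61 combinations of arm and γδ class with 50 or more cells, Cirbp ranged from 68.8 to 520.3 CPM, Rbm3 from 263 to 1487, Pik3ip1 from 12.5 to 297 and Txnip from 36.5 to 807 CPM. Of 2832 genes, those most like Cirbp by Pearson's r of log2(CPM + 10) were Snhg3 (0.72), Pcif1 (0.65), Xpa (0.63), Rbm3 (0.62) and Uri1 (0.61), and those most like Rbm3 were Lsm5 (0.68), Sin3b (0.65), Snhg3 (0.65), Srp9 (0.64) and Cirbp (0.62). Pik3ip1 was most like Baz2b (0.83), Ssh2 (0.77), Ccr7 (0.77), Foxp1 (0.77) and Acp5 (0.76), and Txnip most like Bcl2 (0.75), Pdcd4 (0.71), Gimap5 (0.68), Herc4 (0.63) and Tsc22d3 (0.63). Between the pairs of members, r was 0.62 for Cirbp and Rbm3, 0.49 for Pik3ip1 and Txnip, 0.45 for Cirbp and Txnip, 0.27 for Cirbp and Pik3ip1, 0.20 for Rbm3 and Txnip and 0.0054 for Rbm3 and Pik3ip1. These values are a description, since the points share libraries, depth and arms.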

How the data were processed

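The authors deposited unfiltered UMI counts per gene and barcode, made with Cell Ranger (version 4 in the matrix header; mm10 per the processing notes in the labels), and hashtag counts, for 16 samples. All 11 arms came from 5 pools, with no replicate arm. Barcodes with fewer than 1000 UMIs, with fewer than 500 genes or with mitochondrial UMIs above 10% were dropped. The top hashtag of a cell had to hold 10 or more UMIs and 3 or more times the next. Cells with the highest Scrublet scores were removed as likely doublets, 0.8% for every 1000 cells (1.02 to 8.33% per pool). Clusters were made with scanpy 1.11.5 and leidenalg 0.10.2 (2000 variable genes, 30 components, 15 neighbours, resolution 1.0) without the 4 genes, Il17a and Il17f, the chaperone, T cell receptor response and dissociation lists. A class was named from 3 or more raised markers with a mean log2 difference of 0.5 or more. Clusters of other lineages with much Cd3e were left unplaced, a rule set after seeing the clusters. Cluster 12, counted as naive, was led by Ifit3, Ifit1 and Isg15, and NK-like cluster 13 had a median of 1602 UMIs. In the many-lineage libraries named clusters of no other lineage with Cd3e at 300 CPM or more were read as T cells, and other clusters outside the 9 lineages, cycling and unnamed ones among them, were left out.

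Levels carry exact Poisson, ratios exact conditional and shares Clopper-Pearson intervals (Python 3.11.15, numpy 2.4.6, scipy 1.17.1), and the ratio code was tested on simulated data. A count of 0 was given a floor of 3 UMIs per class. From each list, genes at least 2-fold apart in any of the 4 comparisons were named, up to 4 per direction, and for each of the 4 genes the 5 most correlated. The genes and lists were chosen with earlier results of these data known. Alternatives changed the filters, hashtag rule, doublet filter, clustering, scaling, free RNA, depth and heat shock cells, and 4 that left out clusters were added after seeing the data. The value of 1 gene of the RNA-binding list is not reported here.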

Additional observations from a re-analysis of the deposited data

How the results depend on the processing

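All 272 log2 ratios of STOP over D19 (16 values under 17 alternatives, without the free RNA alternative) kept the sign of the value reported, and 249 moved by less than their counting interval. Cirbp ranged from -1.96 to -1.56 in liver γδT17-like cells, -2.01 to -1.39 in other liver γδT-like cells, -2.27 to -1.82 in LN γδT17-like cells and -2.54 to -1.93 in other LN γδT-like cells. In the same order Rbm3 ranged from -1.40 to -1.01, -1.54 to -1.13, -1.79 to -1.43 and -1.70 to -1.25, and Pik3ip1 from -2.56 to -1.86, -1.53 to -0.58, -1.47 to -1.06 and -2.17 to -1.48. Txnip ranged from -1.33 to -0.49, -0.56 to -0.24, -1.92 to -1.33 and -1.38 to -0.76, so that Txnip in liver γδT17-like and other LN γδT-like cells and Pik3ip1 in other liver γδT-like cells lay on both sides of 2-fold. Of the 32 shares of cells with a UMI at 2000 UMIs or without thinning, 31 moved past their counting interval. Subtracting free RNA left 0 UMIs of Cirbp in liver STOP, and 16 of Rbm3 and 6 of Pik3ip1 in γδT17-like cells there, so its liver values are printed and not read. Of the differences between γδT17-like and other γδT-like cells in the liver, that of Rbm3 was 0.25 with unscaled UMIs per cell, 0.27 with cells thinned to 1000 UMIs, 0.29 without cells holding a UMI of 4 heat shock genes and -3.07 with free RNA subtracted. That of Pik3ip1 was -0.65 without naive clusters, chosen after seeing the data, and -4.18 with free RNA subtracted. That of Txnip was -0.97 at 5% mitochondrial UMIs, -0.23 unscaled, -1.32 with free RNA subtracted and -0.80 without the heat shock cells. It was -0.26 without NK-like clusters and -1.04 without clusters mostly of liver D19, both chosen after seeing the data. In the LN the Txnip difference was 0.0322 without the heat shock cells. Txnip was at least 2-fold lower in 5 classes with unscaled UMIs, and Pik3ip1 in 6 of 10 after thinning. Other counts of classes moved by less than 1.5 times. The causes were not tested. No paired analysis was possible because each arm was measured once.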
